A study of Oryza sativa with 9 samples.

Results

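Ribosomal proteins and the other protein factors of translation made up 25 of the 727 rice loci, and 27 of the 832 transcripts, that the authors' deposited tables list as differentially expressed. A transcript was counted as a member when the KEGG Orthology text of its row named a ribosomal protein, a translation initiation factor, an elongation factor, a tRNA synthetase, or the ribosome or its biogenesis. Loci on chromosome 5 were left out of the members, which removed 6 loci with 7 transcripts. The shares over all listed loci or transcripts given below keep chromosome 5. By class the members were 5 loci of small subunit proteins, 8 of large subunit proteins of the eukaryotic type and 2 of large subunit proteins of the bacterial type. The rest were 4 loci of initiation factors, 2 of elongation factors, 2 of aminoacyl-tRNA synthetases and 2 of ribosome biogenesis. The plants were rice (Oryza sativa) of a BC14F2 population, that is, selfed progeny of repeatedly backcrossed plants, and all groups shared that descent. They were heterozygous (f5-i/j) or homozygous (f5-i/i and f5-j/j) at f5, which causes male sterility in hybrids between rice subspecies, and 3 spikelet samples of each genotype gave polyA RNA for sequencing. The study asked which pathways go with the sterility caused by f5. The recurrent parent, the stage of the spikelets and whether the 3 samples of a genotype were separate plants are not stated in the labels used here.

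A ribosome has a small subunit, which reads the messenger RNA, and a large subunit, which joins the amino acids. Plant cells make one kind in the cytosol, with proteins of the eukaryotic type, and others in plastids and mitochondria, with proteins of the bacterial type. Ribosomes of the cytosol are put together in the nucleolus with the help of biogenesis factors. Initiation factors bring the messenger and the small subunit together, aminoacyl-tRNA synthetases load each tRNA with its amino acid, and elongation factors carry the cycle forward. Flowering plants encode most cytosolic ribosomal proteins in small families of near-identical genes. In the anther, the tapetum that feeds the pollen is a secretory tissue with a dense, ribosome-rich cytoplasm.

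The values were the authors' mean signal of a transcript over the samples of a genotype, in a unit not stated in the sources used here, so levels of different genes were not set against each other. Values of single samples were not analysed here. No mean has an error, depth is unknown, and no test was made: "listed" below means that the authors' deposited table gave it a probability of 0.8 or more of being differentially expressed. The arithmetic of the means still bounds the samples. Of the 2502 deposited means, 100% became whole multiples of 0.01 when multiplied by 3, within a tolerance of 1e-06 of that step, as averages of 3 values with 2 decimals would be. A sample of such a mean cannot exceed the mean times 3, so where the authors' mean is at its lowest value of 0.01, no sample of that genotype can have been above 0.03. A high mean is bounded less well, since it could rest on a single high sample. A transcript in only one table has means for only its 2 genotypes. In whole spikelets, fewer cells of a type and less RNA per cell cannot be told apart.

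In the heterozygote, more translation loci were listed lower than higher against f5-i/i plants. This did not hold among transcripts above the lowest value in both genotypes, where 5 were higher and 2 lower. Over all such listed transcripts, 140 were higher and 112 lower. Against f5-j/j plants, nearly as many translation loci were listed higher as lower in the heterozygote, with chromosome 5 left out. In the authors' deposited table of f5-i/j plants against f5-i/i plants, 16 member loci were listed, 6 higher and 10 lower in f5-i/j plants. Of all 427 loci in that table, 52.7% were higher and 44.5% lower in the heterozygote, against 37.5% and 62.5% of the members. Against f5-j/j plants, 11 member loci were listed, 5 higher and 6 lower in f5-i/j plants (45.5% and 54.5%), beside 44.4% higher and 53% lower for all 313 loci of the authors' deposited table. The members' split was thus close to that of the whole table there, although the whole table keeps chromosome 5. With chromosome 5 kept among the members too, 6 were higher and 9 lower. Between the homozygotes, 16 member loci were listed, 9 higher and 6 lower in f5-i/i plants and 1 with transcripts going both ways, while 44.3% of all 379 loci in the authors' deposited table stood higher in f5-i/i plants and 53.6% stood lower. The 3 comparisons share their genotype means, so a high f5-i/i mean appears in both tables with f5-i/i plants. Of the 25 member loci, 64%, 44% and 64% were in the tables of f5-i/j plants against f5-i/i plants, f5-i/j plants against f5-j/j plants and f5-i/i plants against f5-j/j plants, beside 58.7%, 43.1% and 52.1% of all 727 loci.

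**Figure D1:**
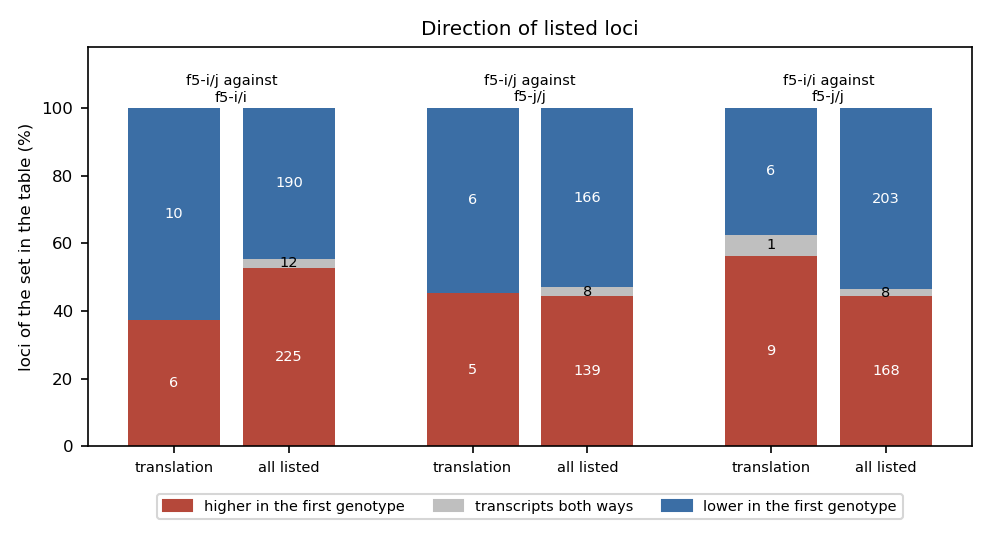
Share of loci, in percent, listed higher (red) or lower (blue) in the first-named genotype, or with transcripts going both ways (grey), for the translation members and for all loci of each authors' deposited table, with the number of loci in each segment. Chromosome 5 is left out of the members only. The members lean lower in f5-i/j plants against f5-i/i plants (10 of 16 loci, but 2 of 7 transcripts when those at the lowest value are left out), and are near the whole table in f5-i/j plants against f5-j/j plants. Some of these 7 transcripts have doubtful descriptions.

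The ribosomal proteins of the small subunit held the transcripts with the highest probabilities of all members in both comparisons of the heterozygote, and 3 of their 5 loci stood at the lowest value in the heterozygote. Ribosomal protein S25e (LOC_Os08g44480.3, chromosome 8) is a protein of the head of the small subunit. Its authors' mean was 0.01 in f5-i/j plants, 374 in f5-i/i plants and 157 in f5-j/j plants. No f5-i/j sample can have been above 0.03, and the transcript had the highest probability of the whole authors' deposited table in both comparisons of the heterozygote. SAe (LOC_Os03g08440.2, chromosome 3), which in yeast is needed for the small subunit to mature, had an authors' mean of 0.01 in f5-i/j plants, 80.7 in f5-i/i plants and 32.1 in f5-j/j plants. Both proteins thus had a transcript that was present in the homozygotes and at the lowest value in the heterozygote. S5e (LOC_Os11g29190.3, chromosome 11), which lies near the exit site of the tRNA, had an authors' mean of 0.01 in f5-i/j plants, 6.07 in f5-i/i plants and 0.01 in f5-j/j plants.

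Of the other small subunit loci, neither was lower in the heterozygote in the tables that listed it. S15e (LOC_Os01g56780.3, chromosome 1), a protein near the decoding site, was low in f5-i/i plants alone, with an authors' mean of 19.9 in f5-i/j plants, 0.573 in f5-i/i plants and 22.4 in f5-j/j plants. The f5-i/i samples cannot have exceeded 1.72, and the authors' deposited tables give a 34.7-fold higher mean in f5-i/j plants and a 39.1-fold lower one in f5-i/i plants than in f5-j/j plants. This transcript has a coding length of 2352 bases, the longest of the ribosomal protein transcripts, whose median was 354 bases. S21e (LOC_Os03g22460.2, chromosome 3) was listed only for f5-i/j plants against f5-j/j plants, with an authors' mean of 81.9 in f5-i/j plants and 26.7 in f5-j/j plants.

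**Figure D2:**
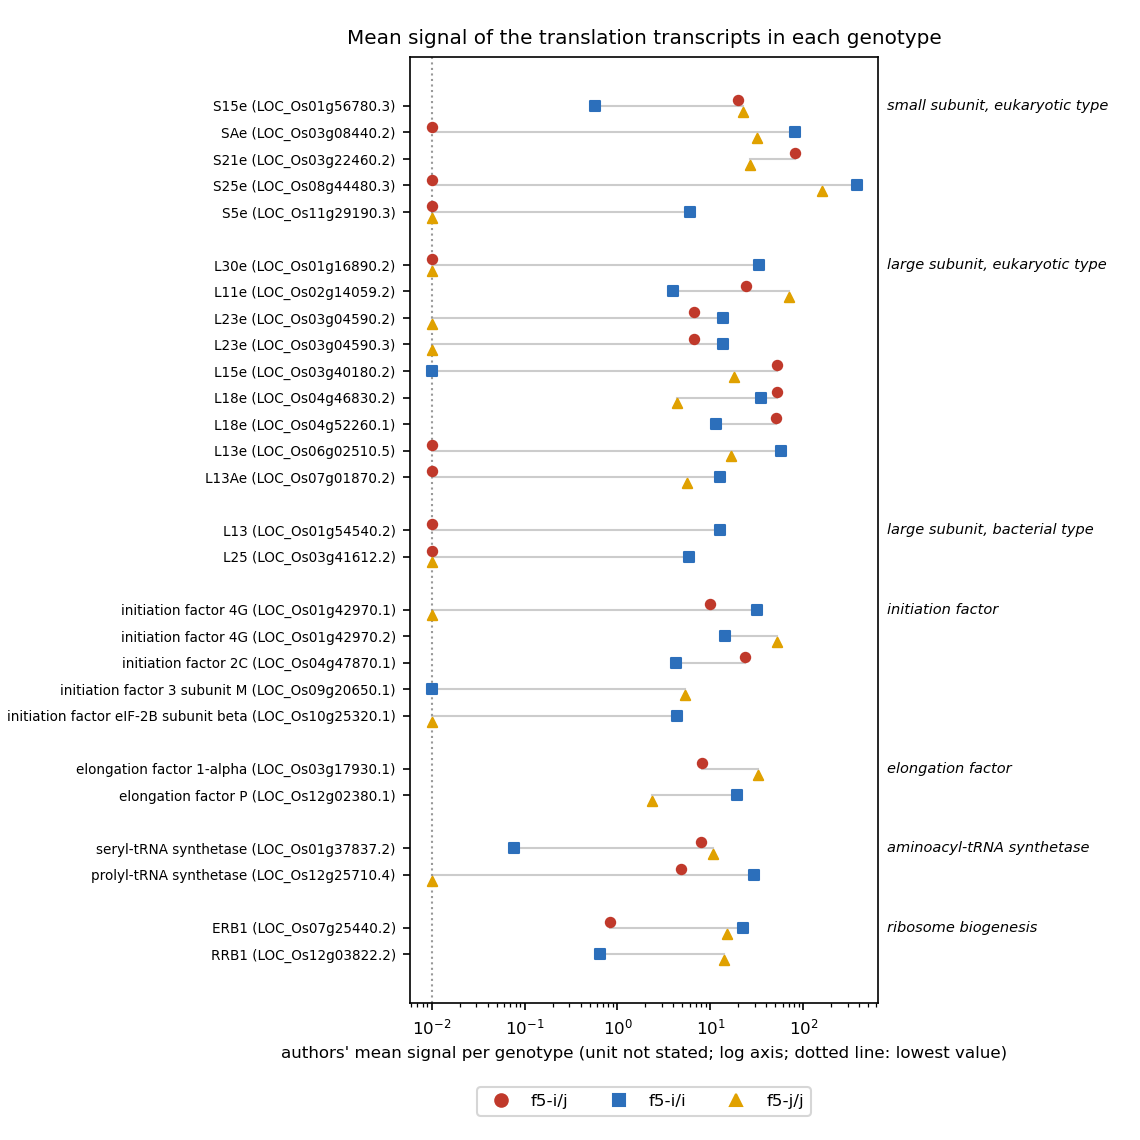
Authors' mean signal (log axis, unit not stated) of each of the 27 translation transcripts in f5-i/j plants (red circles), f5-i/i plants (blue squares) and f5-j/j plants (yellow triangles), grouped by class, with a grey line over the range. A genotype without a point has no deposited mean in the tables analysed, and the dotted line marks the lowest value of 0.01, where 8 transcripts stand in f5-i/j plants against f5-i/i plants.

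Large subunit proteins of the eukaryotic type went both ways, 3 loci higher and 3 lower in f5-i/j plants than in f5-i/i plants, and 2 higher and 2 lower than in f5-j/j plants, in the authors' deposited tables. The lower ones were all at the lowest value in the heterozygote. L13e (LOC_Os06g02510.5, chromosome 6) was listed in all 3 tables, with an authors' mean of 0.01 in f5-i/j plants, 57.1 in f5-i/i plants and 16.7 in f5-j/j plants. L13Ae (LOC_Os07g01870.2, chromosome 7), which in human cells also takes part in translational control outside the ribosome, had 0.01 in f5-i/j plants, 12.7 in f5-i/i plants and 5.62 in f5-j/j plants by the authors' mean. L30e (LOC_Os01g16890.2, chromosome 1) is a protein that in yeast binds its own transcript and blocks its splicing. Its authors' mean was 0.01 in f5-i/j plants, 33.4 in f5-i/i plants and 0.01 in f5-j/j plants, so that only f5-i/i plants were above the lowest value.

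Among the higher ones, L15e (LOC_Os03g40180.2, chromosome 3), which lies largely embedded in the ribosomal RNA, had an authors' mean of 51.7 in f5-i/j plants, 0.01 in f5-i/i plants and 17.7 in f5-j/j plants. L11e (LOC_Os02g14059.2, chromosome 2), part of the knob of the large subunit that holds its small RNA, had 24.3 in f5-i/j plants, 3.93 in f5-i/i plants and 69.9 in f5-j/j plants by the authors' mean. By the means the heterozygote lay between the homozygotes, though its difference from f5-j/j plants was not listed. The homozygotes differed 17.8-fold in the authors' deposited table. This was the largest listed difference of a eukaryotic large subunit transcript with no mean at the lowest value. A pair of loci were described as L18e. LOC_Os04g46830.2 (chromosome 4) had an authors' mean of 52.3 in f5-i/j plants, 34.6 in f5-i/i plants and 4.35 in f5-j/j plants, and LOC_Os04g52260.1 (chromosome 4) had 50.7 in f5-i/j plants and 11.4 in f5-i/i plants. For the first the authors' deposited tables list f5-j/j plants as low, below both other genotypes, the f5-i/i mean being 7.97-fold above the f5-j/j mean. For the second they list only the heterozygote above f5-i/i plants, by 4.43-fold, a contrast in which the first was not listed. L23e (LOC_Os03g04590, chromosome 3), which sits where the subunits meet, was listed with 2 transcripts of the same coding length, 315 bases, and identical means. Each had 6.68 in f5-i/j plants, 13.5 in f5-i/i plants and 0.01 in f5-j/j plants by the authors' mean, so they carry a single measurement.

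Both ribosomal proteins of the bacterial type were at the lowest value in the heterozygote. L13 (LOC_Os01g54540.2, chromosome 1), in bacteria one of the first proteins to join the large subunit, had an authors' mean of 0.01 in f5-i/j plants and 12.6 in f5-i/i plants. L25 (LOC_Os03g41612.2, chromosome 3), which in bacteria binds the small RNA of the large subunit, had 0.01 in f5-i/j plants, 5.89 in f5-i/i plants and 0.01 in f5-j/j plants by the authors' mean. In both cases f5-i/i plants were above the lowest value, and for L25 no other genotype was.

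**Figure D3:**
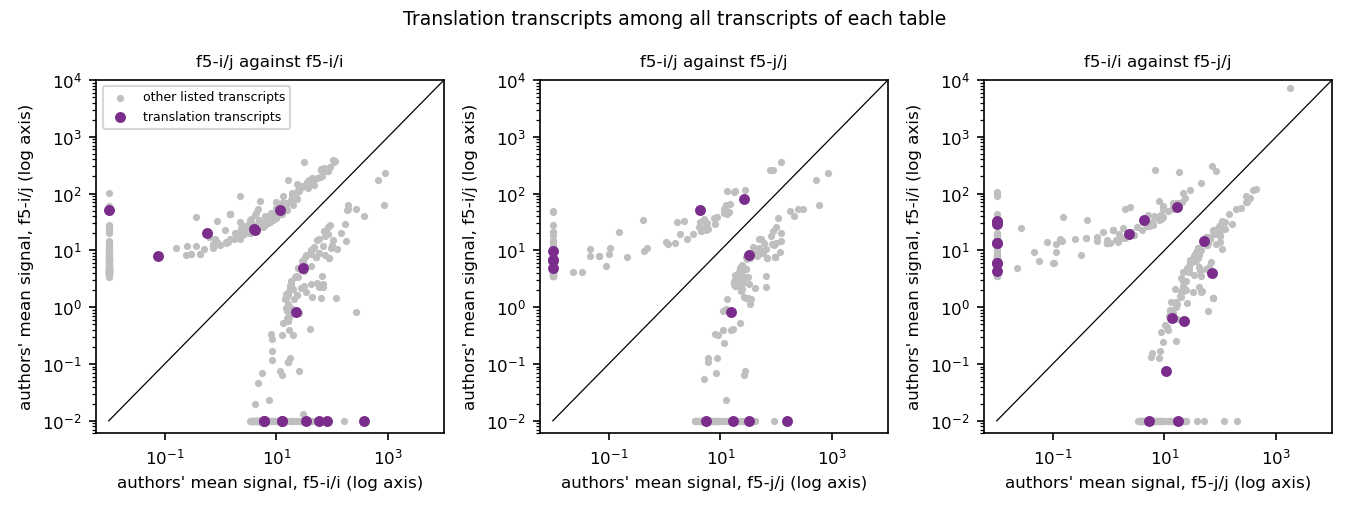
Authors' mean signal of each listed transcript in the first-named genotype (vertical, log axis) against the second (horizontal, log axis) for the 3 comparisons, with translation transcripts in purple and all others in grey. The gap along the diagonal is the authors' filter, and the rows of points at 0.01 are transcripts at the lowest value, such as S25e at 374 in f5-i/i plants and 0.01 in f5-i/j plants.

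Of the initiation factors, the locus described as eIF4G (LOC_Os01g42970, chromosome 1) had 2 transcript models that went opposite ways between the homozygotes. eIF4G is the scaffold that links the cap-binding protein of a messenger to the small subunit. The transcript LOC_Os01g42970.1 had an authors' mean of 9.80 in f5-i/j plants, 31.5 in f5-i/i plants and 0.01 in f5-j/j plants. The transcript LOC_Os01g42970.2, whose coding length is 3 bases shorter (1386 against 1389 bases), had 14.4 in f5-i/i plants and 51.7 in f5-j/j plants by the authors' mean and no listed value for f5-i/j plants. Summed over these 2 listed transcripts, the authors' means came to 45.8 in f5-i/i plants and 51.7 in f5-j/j plants, and the first transcript made 68.6% of the sum in f5-i/i plants. The first transcript was thus at the lowest value in f5-j/j plants, while the sum of the 2 was not lower there. Any other transcripts of the locus were not listed, so its level as a whole is not known. This was the only member locus with transcripts going both ways, among 2 with several listed transcripts. The other, L23e, could not, since its transcripts had identical means. Of all 379 loci listed between the homozygotes, 8 had transcripts going both ways.

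**Figure D4:**
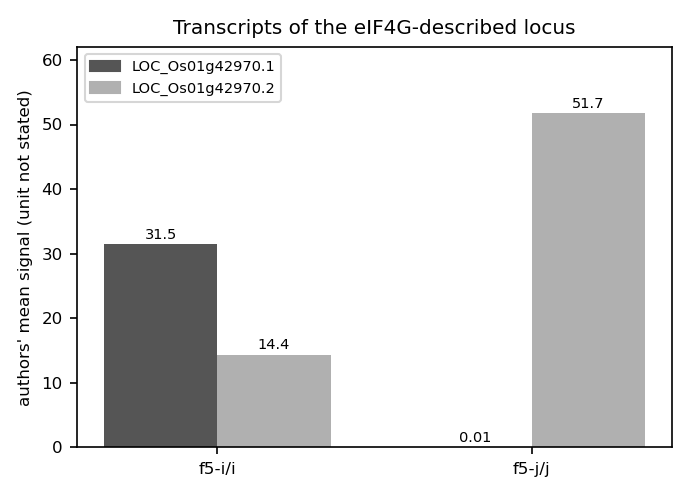
Authors' mean signal (unit not stated) of the 2 listed transcripts of the locus described as eIF4G in f5-i/i plants and f5-j/j plants. The darker bars, LOC_Os01g42970.1, stand at 31.5 in f5-i/i plants and 0.01 in f5-j/j plants, and the lighter bars, LOC_Os01g42970.2, at 14.4 in f5-i/i plants and 51.7 in f5-j/j plants.

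The other initiation factor loci were each listed once. The beta subunit of eIF2B (LOC_Os10g25320.1, chromosome 10), part of the exchange factor that recharges eIF2 with GTP, had an authors' mean of 4.36 in f5-i/i plants and 0.01 in f5-j/j plants. A transcript described as subunit M of eIF3 (LOC_Os09g20650.1, chromosome 9), the complex that binds the small subunit, had 0.01 in f5-i/i plants and 5.29 in f5-j/j plants. These means are among the lower ones listed, and the smallest larger mean of any transcript in the authors' deposited table of the homozygotes was 3.41. The last, LOC_Os04g47870.1 (chromosome 4), had an authors' mean of 23.3 in f5-i/j plants and 4.22 in f5-i/i plants, a 5.52-fold difference in the authors' deposited table. Its description, eukaryotic translation initiation factor 2C, is an older name for Argonaute proteins, which bind small RNAs and silence messengers and are not part of the initiation machinery.

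Both aminoacyl-tRNA synthetases differed between the homozygotes, in opposite directions, with the heterozygote in between by the means. For seryl-tRNA synthetase, the difference between f5-i/j plants and f5-j/j plants was not listed. Prolyl-tRNA synthetase (LOC_Os12g25710.4, chromosome 12), which loads tRNA with proline, was listed in all 3 tables, with an authors' mean of 4.82 in f5-i/j plants, 29.5 in f5-i/i plants and 0.01 in f5-j/j plants. Seryl-tRNA synthetase (LOC_Os01g37837.2, chromosome 1), which loads serine, had 7.88 in f5-i/j plants, 0.0767 in f5-i/i plants and 10.8 in f5-j/j plants by the authors' mean. No f5-i/i sample of that transcript can have been above 0.23. The authors' deposited tables thus give a 103-fold higher mean in f5-i/j plants and a 140-fold lower one in f5-i/i plants than in f5-j/j plants, the largest folds among member transcripts with no mean at the lowest value.

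For the elongation factors, elongation factor P (LOC_Os12g02380.1, chromosome 12), which in bacteria helps ribosomes past runs of proline, had an authors' mean of 19.5 in f5-i/i plants and 2.32 in f5-j/j plants, 8.40-fold higher in f5-i/i plants in the authors' deposited table. LOC_Os03g17930.1 (chromosome 3) had 8.19 in f5-i/j plants and 32.4 in f5-j/j plants by the authors' mean. Its descriptions included elongation factor 1-alpha, which delivers loaded tRNAs to the ribosome, with an E-value of 1e-10. It had 3 other entries, a cohesin subunit, a nuclear pore protein and a kinesin, so its place among translation factors rests on a weak match.

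Of the biogenesis factors, ERB1 was low in the heterozygote, and RRB1 was lower in f5-i/i plants than in f5-j/j plants, with no known f5-i/j mean. ERB1 (LOC_Os07g25440.2, chromosome 7), in yeast required to process the RNA of the large subunit, had an authors' mean of 0.833 in f5-i/j plants, 22.2 in f5-i/i plants and 15.2 in f5-j/j plants. No f5-i/j sample can have exceeded 2.5, and in the authors' deposited tables the heterozygote was 26.6-fold below f5-i/i plants and 18.3-fold below f5-j/j plants. Among members with 3 known means, it was the only one that was lower in the heterozygote than in both homozygotes without standing at the lowest value. RRB1 (LOC_Os12g03822.2, chromosome 12), in yeast a chaperone of a large subunit protein before its assembly, had 0.647 in f5-i/i plants and 13.9 in f5-j/j plants by the authors' mean, a 21.5-fold difference in the authors' deposited table.

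Means of all 3 genotypes were known for 17 member transcripts of 16 loci, those listed in at least 2 tables. They did not follow a single pattern. The heterozygote was below both homozygotes for 5 transcripts (S25e, SAe, L13e, L13Ae and ERB1), and in all of these the f5-i/i mean was the highest. How often that order held over all listed transcripts was not counted. For 3 (S5e, L30e and L25) the heterozygote stood at the lowest value together with f5-j/j plants. There the f5-i/i mean was necessarily the highest, since both other means were at the lowest value. The heterozygote lay between the homozygotes for 7 transcripts of 6 loci. Of those, the f5-j/j mean was the lowest for prolyl-tRNA synthetase, eIF4G and both L23e transcripts, and the f5-i/i mean was the lowest for seryl-tRNA synthetase, L11e and S15e. The heterozygote was above both for 2, L15e and L18e (LOC_Os04g46830.2). These positions follow the order of the means. The 5 transcripts below both were listed lower against both homozygotes. Of the 7 in between, only prolyl-tRNA synthetase was listed against both. The heterozygote was not listed against f5-j/j plants for seryl-tRNA synthetase, L11e, S15e and L15e. It was not listed against f5-i/i plants for eIF4G, L23e and this L18e transcript. Over all 407 transcripts with 3 known means, the heterozygote was below both in 28.3%, at the lowest value with a homozygote in 16.0%, between in 28.5% and above both in 27.3%, and the corresponding shares of the 17 member transcripts were 29.4%, 17.6%, 41.2% and 11.8%. Because 3 means are known only for transcripts listed in at least 2 tables, these shares describe the tables and not rice transcripts at large.

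Among features that did not enter the choice of members, the median coding length was shorter than that of all listed transcripts. Model numbers other than 1 and means at the lowest value were somewhat more frequent, and differed between classes of members. A model number other than 1 in the identifier, which marks an alternative transcript model of the locus, was carried by 20 of the 27 member transcripts (74.1%), beside 61.8% of all 832 listed transcripts. Among the ribosomal protein transcripts it was 15 of 16, LOC_Os04g52260.1 being the exception, while among the other members it was 5 of 11. A mean at the lowest value in a listed comparison occurred for 11 of the 16 ribosomal protein transcripts and 4 of the 11 others. Over all members this was 55.6%, beside 49.4% of all listed transcripts. Member transcripts had a median coding length of 561 bases, beside 916.5 bases for all listed transcripts. For 23 of the 25 loci a single transcript was listed, so the level of the locus as a whole is not known from these values, and a transcript at the lowest value does not mean that the locus was silent. How reads were divided between models of a locus, or between near-identical ribosomal protein genes, could not be checked here, and its part in these differences was not tested.

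Transcripts with no mean at the lowest value gave smaller numbers and another split. In f5-i/j plants against f5-i/i plants there were 7, of which 5 were higher and 2 lower in f5-i/j plants. Over all 252 such transcripts of the authors' deposited table, 140 were higher and 112 lower. The median fold was 6.18 for the members, beside 7.12 over all. Among the 5 higher members were S15e, LOC_Os04g52260.1 and the Argonaute-type transcript, whose descriptions are doubtful. In f5-i/j plants against f5-j/j plants there were 4, of which 2 were higher and 2 lower, with a median fold of 7.99 beside 6.53. In f5-i/i plants against f5-j/j plants there were 8, of which f5-i/i plants had the higher mean in 3 and the lower mean in 5, with a median fold of 13.1 beside 7.37. The lean towards lower loci in f5-i/j plants against f5-i/i plants thus came with the 8 transcripts at the lowest value for f5-i/j plants, beside 1 at the lowest value for f5-i/i plants, whereas over the whole authors' deposited table these numbers were 112 and 116. The members nearest to the authors' threshold had probabilities of 0.806, 0.806 and 0.804 in the tables of f5-i/j plants against f5-i/i plants, f5-i/j plants against f5-j/j plants and f5-i/i plants against f5-j/j plants, per the authors' deposited tables.

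The match behind some descriptions was weak. For 8 transcripts the KEGG Orthology entry had an E-value over 1e-30, among them S25e (3e-18), S15e (7e-30), both transcripts described as eIF4G (2e-29 and 1e-29), eIF3 subunit M (3e-11) and both loci described as L18e (3e-07 and 1e-18). A short protein gives a weaker E-value, and the S25e transcript has a coding length of 261 bases. The L18e description of LOC_Os04g52260.1 stood beside a second entry, a ubiquitin hydrolase. Without these 8 transcripts and the Argonaute-type one, a choice made after seeing the data, 17 loci remained. Of those, 3 were higher and 9 lower in f5-i/j plants than in f5-i/i plants, 3 higher and 4 lower than in f5-j/j plants, and 8 higher and 4 lower in f5-i/i plants than in f5-j/j plants, in the authors' deposited tables.

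Some loci of neighbouring steps of the pathway were listed as well, here with chromosome 5 included. For the nucleolus, where ribosomes are built, nucleophosmin (LOC_Os01g68160.2) had an authors' mean of 0.01 in f5-i/j plants, 14.2 in f5-i/i plants and 0.08 in f5-j/j plants. Nucleolin (LOC_Os07g43810.1), a nucleolar RNA-binding protein, had 59.9 in f5-i/i plants and 9.49 in f5-j/j plants. Fibrillarin (LOC_Os05g08360.2, on chromosome 5), which methylates ribosomal RNA, had 0.01 in f5-i/j plants and 3.74 in f5-j/j plants, and a probable rRNA maturation factor (LOC_Os01g53720.1) had 4.58 in f5-i/j plants and 0.01 in f5-i/i plants by the authors' mean. In all, 4 loci of nucleolar proteins and rRNA processing were listed: 1 higher and 1 lower in f5-i/j plants than in f5-i/i plants, 1 lower in f5-i/j plants than in f5-j/j plants, and 2 higher in f5-i/i plants than in f5-j/j plants. Without chromosome 5 they were 3 loci, and 0 were listed for f5-i/j plants against f5-j/j plants. Such counts are too small to set against the shares of all loci given above.

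Enzymes that modify tRNA were listed at 4 loci, 2 lower in f5-i/j plants than in f5-i/i plants, 2 higher in f5-i/j plants than in f5-j/j plants and 4 higher in f5-i/i plants than in f5-j/j plants. One of them (LOC_Os05g51690.3) is on chromosome 5, and without it 1 was lower, 2 were higher and 3 were higher in the same order of comparisons, beside 44.5% of all listed loci lower, 44.4% higher and 44.3% higher. The wybutosine enzyme (LOC_Os10g36690.5), which modifies a base of phenylalanine tRNA, had an authors' mean of 0.01 in f5-i/j plants, 43.5 in f5-i/i plants and 0.01 in f5-j/j plants. A queuine tRNA-ribosyltransferase subunit (LOC_Os02g10920.2) had 8.43 in f5-i/j plants, 7.78 in f5-i/i plants and 0.01 in f5-j/j plants. All 4 thus had their lower value in f5-j/j plants where the homozygotes were compared. Apart from the wybutosine enzyme, with an E-value of 4e-85, these loci were described by weak matches. The E-values were 1e-19 for LOC_Os02g10920.2, 6e-10 for LOC_Os05g51690.3 and 1e-10 for LOC_Os08g41010.5, so their place among tRNA enzymes is uncertain. Weak matches, with E-values from 3e-18 to 1e-13, described 3 listed loci as polyadenylate-binding proteins, which hold the tail of the messenger. At one of them, LOC_Os09g38010, the transcript LOC_Os09g38010.1 had 5.22 in f5-i/j plants and 0.01 in f5-i/i plants, and LOC_Os09g38010.2 had 0.01 in f5-i/j plants, 7.20 in f5-i/i plants and 6.41 in f5-j/j plants by the authors' mean, so that here too the models of a locus went opposite ways, between the heterozygote and f5-i/i plants. For protein targeting 2 loci were listed, both lower in f5-i/j plants than in f5-i/i plants, beside 44.5% of all listed loci. One of them, the signal recognition particle receptor (LOC_Os08g37444.6), which docks ribosomes at the membrane, was higher in f5-i/j plants than in f5-j/j plants and in f5-i/i plants than in f5-j/j plants, with an authors' mean of 15.1 in f5-i/j plants, 105 in f5-i/i plants and 0.01 in f5-j/j plants. The other targeting locus was the alpha subunit of SEC61 (LOC_Os08g15460.2), the channel into the endoplasmic reticulum, with an authors' mean of 0.0467 in f5-i/j plants and 4.77 in f5-i/i plants. For nuclear export 1 locus was listed, described as exportin-5 (LOC_Os11g31770.3). It was lower in f5-i/j plants than in either homozygote, beside 44.5% and 53% of all listed loci. Its authors' mean was 0.127 in f5-i/j plants, 17.9 in f5-i/i plants and 8.64 in f5-j/j plants. A role in the export of ribosomes was not tested. No listed transcript was described with the words S6 kinase or target of rapamycin (TOR), for kinases that adjust translation to growth. Other names of the TOR kinase were not searched, so its absence is not shown.

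Other gene groups were listed in the same tables, counted here with chromosome 5 included. Loci described by light-harvesting, photosystem or chlorophyll words, for the green hull tissue, were 18 higher, 0 lower and 1 both ways in f5-i/j plants against f5-i/i plants, 3 higher, 0 lower and 1 both ways in f5-i/j plants against f5-j/j plants, and 0 higher and 6 lower in f5-i/i plants against f5-j/j plants. Loci described by heat shock or chaperone words were 0 higher, 14 lower and 1 both ways, then 1 higher and 15 lower, then 2 higher, 2 lower and 1 both ways, in the same order of the authors' deposited tables. Of all listed loci, 52.7% were higher and 44.5% lower, then 44.4% and 53%, then 44.3% and 53.6%, in that order. The part of these 2 gene groups in the values of the translation loci was not tested. Of 8 floral MADS-box loci searched as markers of the spikelet, 0 were listed, so these tables neither bear out nor contradict the labelled tissue.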

How the data were processed

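Spikelet polyA RNA of 9 samples, 3 per genotype, was fragmented before random-primed cDNA synthesis and Illumina sequencing, per the labels' protocols. RSEM, Bowtie and BWA appear, with neither version nor role, per the submitters' processing notes. Build, annotation and normalization are steps not given in the sources used here. Per the file headers, the deposited tables hold mean signal values of 2 genotypes, their log2 ratio and a probability, which is a score by the authors and not a p-value. The deposited coding lengths, another kind of value, were all multiples of 3. The log2 ratio equalled that of the means within 5.2e-14, and means of a transcript differed between tables in 0 cases. Genotypes of columns follow table and column names. Members were found by words in the KEGG Orthology text and collapsed to loci, a locus with transcripts both ways being counted apart. The members, lists and alternatives were chosen with earlier results of these data known. The rule for named transcripts took those listed in at least 2 tables, with a larger mean of at least 20, among the 5 largest ratios of a table, or of a locus with several, and the few others were named too. Counts were made with Python 3.11.15 and pandas 2.3.3 and tested on simulated data. There are no p-values, since single samples were not analysed here. Sequences and coordinates were not used here, since the reference table carries other identifiers.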

Additional observations from a re-analysis of the deposited data

How the results depend on the processing

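Counts of loci depended on transcripts at the lowest value and on the probability. Without transcripts at the lowest value, the higher and lower loci were 5 and 2 for f5-i/j plants against f5-i/i plants (6 and 10 with them), 2 and 2 for f5-i/j plants against f5-j/j plants (5 and 6), and 3 and 5 for f5-i/i plants against f5-j/j plants (9 and 6), so the side with more loci changed in the first and last. In the first, the 5 higher loci included S15e, LOC_Os04g52260 and LOC_Os04g47870, whose descriptions are doubtful. At a probability of at least 0.9, the higher and lower loci were 1 and 6 for f5-i/j plants against f5-i/i plants, 1 and 3 for f5-i/j plants against f5-j/j plants, and 4 and 2 for f5-i/i plants against f5-j/j plants. In both comparisons of the heterozygote, every locus kept by this setting had a mean at the lowest value. These counts therefore give no separate evidence on the direction there. Without the doubtful descriptions, an alternative chosen after seeing the data, the higher loci were 3 for f5-i/j plants against f5-i/i plants and 3 for f5-i/j plants against f5-j/j plants. In each case fewer transcripts were counted. The other 30 of 42 counts, among them all those with a larger mean of at least 5, by transcript, with chromosome 5 kept or with all annotation columns searched, differed by at most 1.5 times. With chromosome 5 kept, the higher and lower loci were 7 and 12 for f5-i/j plants against f5-i/i plants. They were 6 and 9 for f5-i/j plants against f5-j/j plants, the lower count being at that limit, and 9 and 6 for f5-i/i plants against f5-j/j plants. No paired analysis was possible because the tables hold 1 mean per genotype, and for the same reason no replicate could be left out. Depth is unknown.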
